A study of Mus musculus with 21 samples.

Results

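The baseline of this RNA-sequencing series is the transcriptome of hematopoietic stem cells (HSCs) from mice that received only phosphate-buffered saline (PBS). Libraries were taken as members when their label named PBS as the treatment, which gave 6 of the 21 libraries, 3 in each of 2 of the 7 groups. All 6 came from bone marrow of wild-type C57BL/6 mice aged 10 weeks. In the first group PBS was given once and the cells were isolated at day 6. In the other group PBS was given 3 times at intervals of 21 days, and the cells were isolated at day 6 of the last round. These mice served as controls for mice given the cytotoxic drug 5-fluorouracil (5-FU), and no contrast with 5-FU is made here. Each library was prepared from 3000–3500 sorted cells, the replicates came from independent experiments, and the study used mice of both sexes.

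HSCs sit at the top of blood formation in the bone marrow, where most of them rest outside the cell cycle and can both renew themselves and give rise to all blood lineages. They were sorted as cells without surface markers of mature lineages and with Sca-1, c-Kit (together the LSK gate) and CD150 but not CD48 or Flt3. Resting HSCs are known for dependence on stem cell factor and for a network of hematopoietic transcription factors. Earlier work stressed their glycolytic metabolism in a marrow that is poor in oxygen. The authors of this study propose that mitochondria are the main source of ATP in HSCs at steady state.

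The genes that these cells used and did not use differed in a sequence feature that took no part in choosing the libraries, the number of CG dinucleotides at the gene's start. RefSeq promoters (GRCm38.p6, 250 bases before to 50 bases after the start) were at hand for 16853 of the 21000 gene symbols of the count table. In the 9895 promoters of genes with over 3 counts in each of the 6 libraries, the median number of CG dinucleotides was 21 (quartiles 13 and 28). In the 5172 promoters of genes with at most 3 counts in each library the median was 3 (quartiles 1 and 7), and it was 4 in the 3778 that remained without olfactory, vomeronasal, taste receptor, keratin and defensin genes. At least 10 CG dinucleotides were found in 81.7% of the former promoters, in 18.7% of the latter and in 58.8% of all promoters. This is a description of these promoters without a test. 4 promoters are shown as examples of the genes with and without counts, 1 of them an exception, with each CG in capitals. Hnrnpk, whose product binds RNA, and Gata2, a transcription factor of HSCs, were abundant here. Pax5, the factor that fixes B-cell identity, and Alb, the albumin of the liver, had 0 counts in all 6 libraries.

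Hnrnpk promoter, chr13:58402068-58402367, strand minus: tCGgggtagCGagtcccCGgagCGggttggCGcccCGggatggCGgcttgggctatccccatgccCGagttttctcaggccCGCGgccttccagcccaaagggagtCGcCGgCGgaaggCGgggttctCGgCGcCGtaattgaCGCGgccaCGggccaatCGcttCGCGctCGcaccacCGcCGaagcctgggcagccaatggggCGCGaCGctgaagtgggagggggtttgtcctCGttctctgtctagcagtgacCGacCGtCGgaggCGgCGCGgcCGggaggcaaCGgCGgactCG
Gata2 promoter, chr6:88193641-88193940, strand plus: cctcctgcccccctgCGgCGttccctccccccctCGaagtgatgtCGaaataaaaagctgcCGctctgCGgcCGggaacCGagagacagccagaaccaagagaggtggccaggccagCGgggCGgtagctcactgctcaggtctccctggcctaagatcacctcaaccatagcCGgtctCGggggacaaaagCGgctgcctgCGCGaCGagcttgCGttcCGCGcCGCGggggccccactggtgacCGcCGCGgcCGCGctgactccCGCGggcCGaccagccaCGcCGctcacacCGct
Pax5 promoter, chr4:44710645-44710944, strand minus: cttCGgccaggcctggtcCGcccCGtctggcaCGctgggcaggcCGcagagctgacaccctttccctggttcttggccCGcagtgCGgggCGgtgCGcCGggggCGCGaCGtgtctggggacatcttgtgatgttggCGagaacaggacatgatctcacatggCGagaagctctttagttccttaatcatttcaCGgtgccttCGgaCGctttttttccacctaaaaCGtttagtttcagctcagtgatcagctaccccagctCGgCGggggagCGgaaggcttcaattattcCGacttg
Alb promoter, chr5:90460620-90460919, strand plus: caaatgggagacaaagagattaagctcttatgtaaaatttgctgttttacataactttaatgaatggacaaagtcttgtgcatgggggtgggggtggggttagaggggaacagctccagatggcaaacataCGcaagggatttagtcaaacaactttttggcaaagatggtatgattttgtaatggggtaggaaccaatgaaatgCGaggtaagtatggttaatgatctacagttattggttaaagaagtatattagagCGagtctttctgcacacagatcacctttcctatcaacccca

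The Hnrnpk promoter held 40 CG dinucleotides, that of Gata2 held 32 and that of Alb held 3. Pax5 was an exception among the genes without counts, with 23 in its promoter.

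Total counts ranged from 22184885 to 31724107 per library (median 26643476.5), and the floor used here, 3 counts in a library, was 0.0946 CPM (counts relative to the library's total) in the deepest and 0.135 CPM in the shallowest. Over 3 counts were found in all 6 libraries for 12179 of 21000 symbols (58.0%), and the 100 highest genes took between 18.7% and 19.9% of each library. Levels of different genes are given as TPM, a transcript level that divides counts by the gene's length and scales each library to the same sum. They were not comparable between all genes. Of the 939 genes with a single RefSeq transcript and a mean of over 1000 counts, 3.19% had more than 2 counts per base of the gene, the level at which every base on both strands would start 1 read. Among genes with 3 or more RefSeq transcripts this share was 32.6%. Actb, the cytoskeletal actin, has a single RefSeq transcript and had 2055 to 2344 counts (1.15 per base). Eef1a1, the translation elongation factor, had 2578 to 2783 counts (1.51 per base), while Hnrnpk with 15 transcripts had 178593 to 318559 (84.3 per base). The deepest library held 1.43 times the counts of the shallowest, and the count of Actb was 1.14 times as high in it, that of Eef1a1 1.08 times, that of Gapdh with 2 transcripts 1.40 times and that of Hnrnpk 1.78 times. Exceptions among genes with a single transcript included tubulin and histone genes that have near-identical copies. How the reads were counted is not given in the sources used here, and the cause was not tested. For this reason levels of genes with a single RefSeq transcript and of genes with 2 or more are not to be ordered against each other. Where genes of both classes stand side by side, as in sums over a list or shares of a family, the level of the former may be understated. This division was chosen after the counts were seen.

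**Figure D1:**
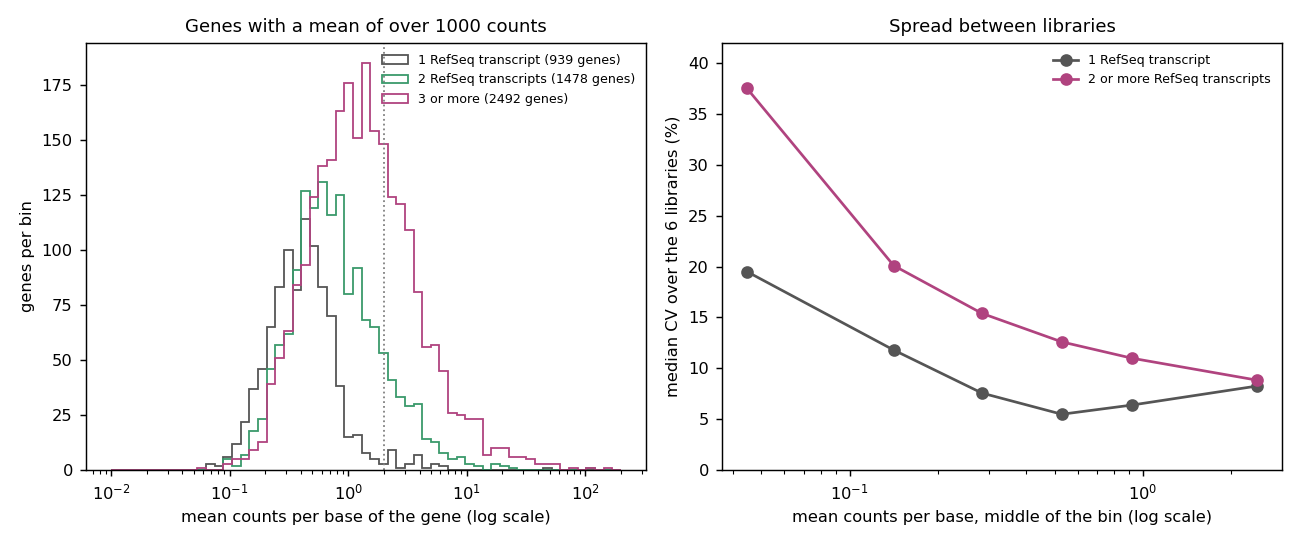
Left, genes with a mean of over 1000 counts in the 6 PBS libraries, by mean counts per base of the gene (log scale) and by number of RefSeq transcripts, with a dotted line at 2 counts per base. Right, median coefficient of variation (CV, in percent) over the 6 libraries by counts per base (log scale). Genes with a single transcript rarely pass the line, and at 0.1 to 0.2 counts per base their median CV is 11.8% against 20.1% for genes with 2 or more.

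The positive genes of the sort gate were well detected, and most of the negative ones were low. Ly6a, which encodes Sca-1, had 742, 929 and 1187 TPM as its lowest, median and highest library. Kit, the receptor of stem cell factor, had 488, 531 and 615 TPM, and Slamf1, which encodes CD150, had 37.7, 39.9 and 47.2 TPM. Cd48 had 4.97, 8.38 and 11.2 TPM, so that Slamf1 was between 3.55 and 9.41 times as high per length as Cd48 in the same library (median 4.76). All 3 positive genes and Cd48 have 2 or more RefSeq transcripts. Among the genes of the lineage antibodies, Itgam (Mac-1) had 3.85, 7.52 and 10.4 TPM and Ly6g (part of Gr-1) had 0, 0.951 and 7.75 TPM. Cd4, with a single transcript, had 0.506, 1.52 and 3.41 TPM, and Cd8a had 0 counts in all 6 libraries. Flt3 was not at the floor. It has a single transcript and had 17.2, 18.0 and 21.8 TPM, from a mean of 703 counts. In these bulk samples, few cells of a type and little RNA per cell cannot be told apart. B220 is a form of the protein of Ptprc, which all blood cells make (198, 237 and 245 TPM), so the gene's count cannot check it, and the Ter-119 antigen was not analysed here.

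All 20 HSC marker genes on the list had over 3 counts in every library, against 58.0% of all symbols. High among them were Ifitm1, an interferon-induced membrane protein (2225, 2589 and 3399 TPM), and Cd63, a tetraspanin (1072, 1254 and 1402 TPM). Pdzk1ip1 (744, 749 and 785 TPM) and Meis1, a homeodomain factor (375.1, 400.2 and 437.1 TPM), varied less between libraries. Cd34 had 325, 399 and 461 TPM. Among markers with a single transcript, Cd9 had 60.6, 62.6 and 71.3 TPM, Hlf had 43.7, 48.6 and 49.8, and Procr, which encodes EPCR, had 37.9, 45.0 and 50.1. Selp, the adhesion molecule P-selectin, had the widest range among them, with 7.24, 13.6 and 26.5 TPM. Its 3 lower values were those after PBS once and its 3 higher values those after PBS 3 times.

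**Figure D2:**
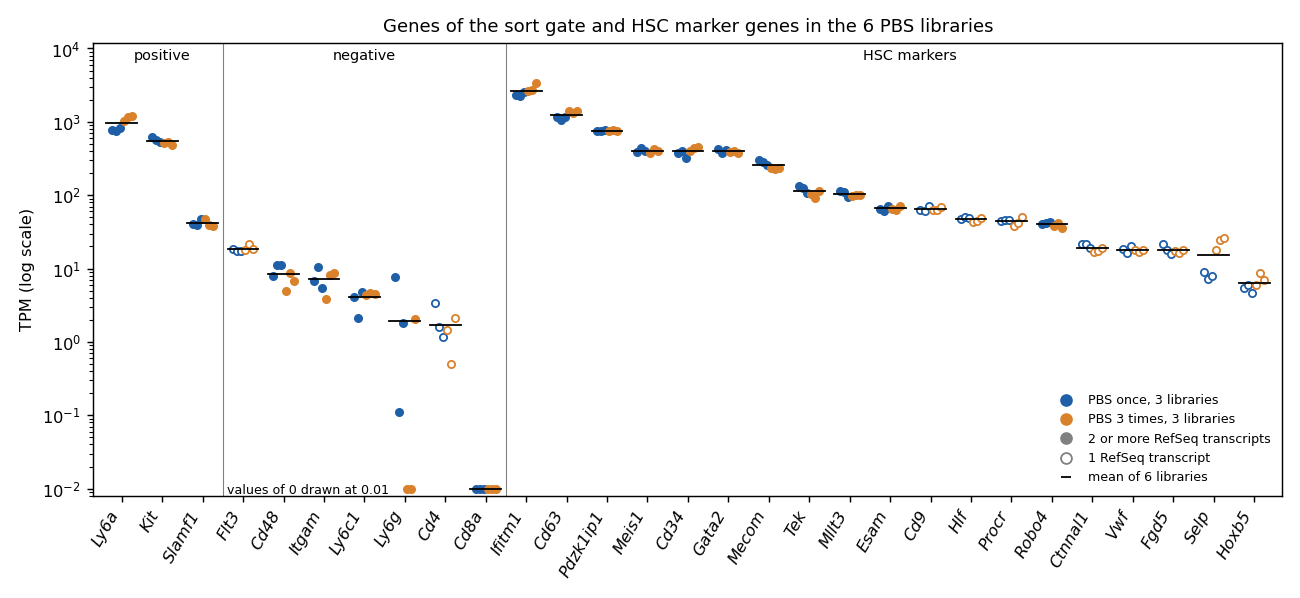
TPM (log scale) of genes of the sort gate and of 19 of the 20 HSC marker genes in each of the 6 libraries, with PBS once in blue and PBS 3 times in orange, 2 or more RefSeq transcripts as filled and a single transcript as open points, and the mean as a line. Among genes with 2 or more transcripts, the positive genes Ly6a, Kit and Slamf1 lie above the negative genes other than Ptprc (whose B220 form alone was stained). Flt3 and Cd4 have a single transcript and are not ordered against them. Cd8a is at 0 (drawn at 0.01), and Selp splits by group.

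The most abundant messages included genes of translation, ubiquitin and RNA binding. By TPM the order was led by Rps19, a protein of the small ribosomal subunit (14200, 16330 and 17770 TPM), and Eif5a, a translation elongation factor (10450, 11190 and 11830 TPM). Next came the polyubiquitin gene Ubb (9156, 10410 and 11330 TPM), Hnrnpk (7236, 8174 and 8872 TPM) and Pkm, the pyruvate kinase that ends glycolysis (5244, 5898 and 6276 TPM). Also among the 20 highest were Ewsr1, Hnrnpf, Hnrnpc and Cnbp of the nucleic acid binding proteins, and Arhgdib, an inhibitor of small GTPase exchange in blood cells (4372, 4934 and 5293 TPM). Ptma, Shisa5, Myl6, the class I gene H2-Q6 and Ly6e filled further places. Gpx1, which reduces hydrogen peroxide, had 3050, 3374 and 3806 TPM. Nfe2 and Lmo2 were the 2 genes of the transcription factor lists among the 20. By counts alone, Hnrnpk led with a mean of 250280 counts per library, and Lars2, the mitochondrial leucyl-tRNA synthetase, entered the first 10 with 69815 to 120750 counts. All genes named in this order have 2 or more RefSeq transcripts.

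Of 91 transcription factors listed for stem cells, 84 had over 3 counts in all 6 libraries, 30 reached a mean of 100 TPM, and their median was 45.4 TPM, against 2047 of 21000 symbols with 100 TPM and a median of 4.51 TPM over all symbols. Nfe2, a factor of the megakaryocyte and erythroid lineages, led with 2915, 3110 and 3292 TPM. Lmo2, the bridging subunit of hematopoietic complexes, had 2801, 3045 and 3316 TPM, and the ranges of the 2 genes overlapped. Myc had 1215, 1236 and 1271 TPM, the narrowest range of the 3. They were followed by Tsc22d1 (391, 461 and 564 TPM), Cbfb, the partner of RUNX factors (387, 421 and 486 TPM), Meis1 and Gata2 (375, 390 and 425 TPM), and the ranges of these 4 overlapped. Other members of the core network were picked after their values were seen. Of these, Ldb1, which joins LMO2 to its partners, had 346, 364 and 380 TPM, Erg 181, 192 and 203 TPM, Runx1 155, 165 and 180 TPM, and Tal1 42.6, 45.5 and 53.5 TPM. Fli1 and Lyl1 have a single transcript and had 48.0, 54.1 and 58.0 TPM and 20.4, 22.8 and 24.7 TPM. Mecom, a regulator of HSC maintenance, had 229, 245 and 306 TPM. Sox17, a factor of fetal HSCs, had 0 counts in all 6 libraries. None of the 28 highest factors had a single RefSeq transcript, while 34 of the 91 on the list did.

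**Figure D3:**
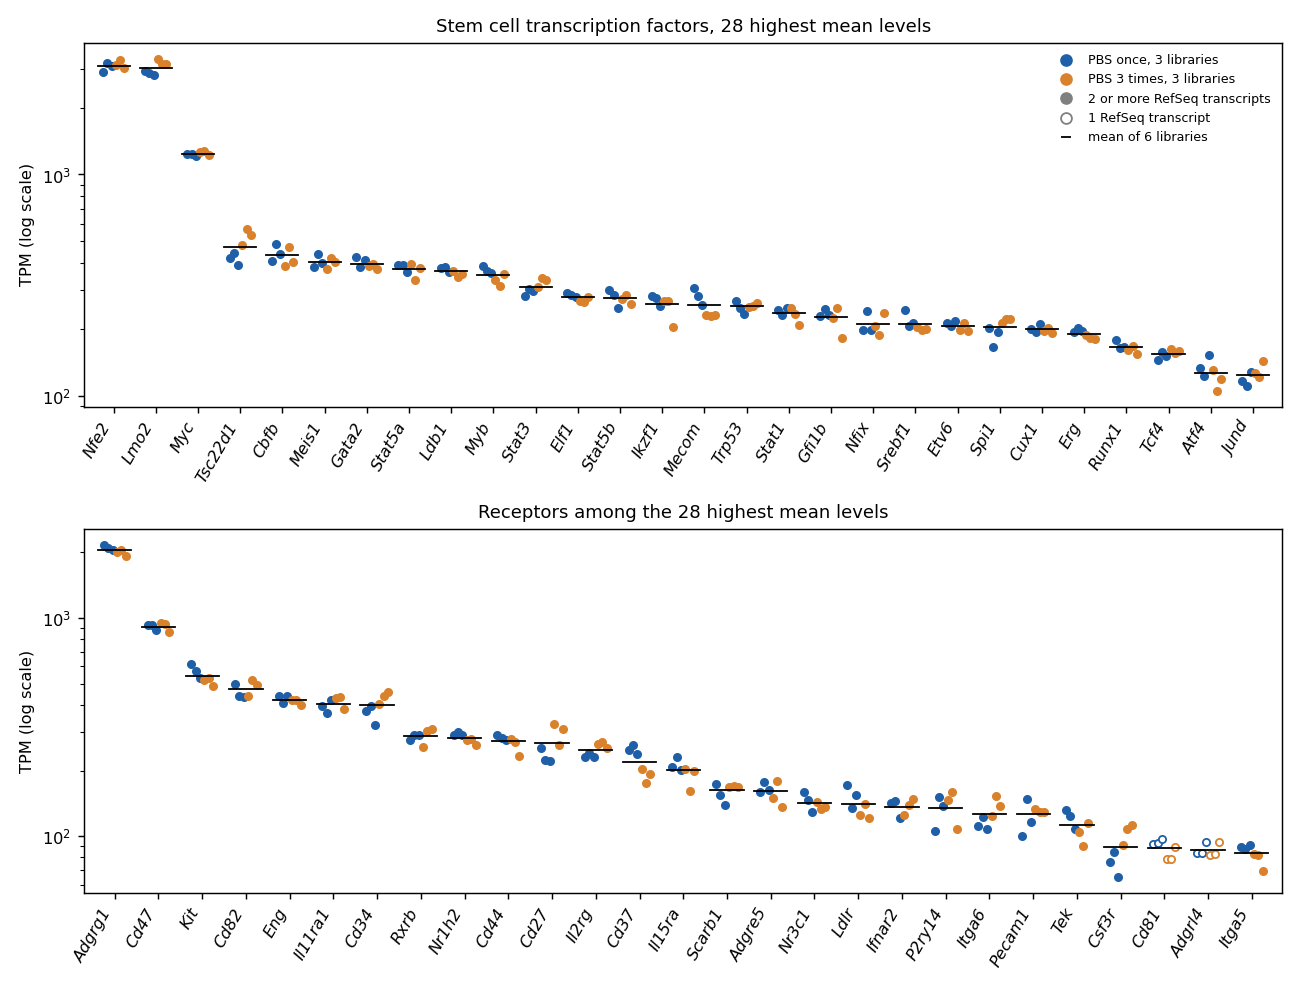
TPM (log scale) in each of the 6 libraries for the 28 stem cell transcription factors (top) and 27 of the 28 receptors (bottom) with the highest mean, with PBS once in blue and PBS 3 times in orange, 2 or more RefSeq transcripts filled, a single transcript open, and the mean as a line. Nfe2, Lmo2 and Myc stand above the other factors, and Adgrg1 and Cd47 above the other receptors drawn.

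Transcription factors that mark or drive single blood lineages formed a second list. Of these 28 lineage factors 14 had over 3 counts in all libraries, 5 were at or under 3 counts in each (Pax5, Bcl11b, Eomes, Pou2af1 and Batf3), and the median was 1.76 TPM. Tcf3, which encodes the E proteins E12 and E47, was high (1533, 1731 and 1826 TPM), Nfatc1 had 217, 233 and 275 TPM, and Cebpb, a myeloid factor, had 75.4, 95.3 and 113 TPM. With a single transcript, Gata1, the erythroid and megakaryocyte factor, had 20.6, 24.1 and 28.4 TPM. Cebpa, which drives granulocyte fate, had 1.83, 2.74 and 5.64 TPM, and Ebf1, the early B-cell factor, had a median of 0 and a highest value of 1.43 TPM. Of 20 factors of other tissues, 13 were at or under 3 counts in all 6, among them Sox2, Myod1, Nkx2-5, Pdx1 and Gata4. The exceptions with over 3 counts in every library were Runx2, the bone factor (98.4, 116 and 125 TPM), Hnf4a, a liver factor (21.5, 34.3 and 47.6 TPM), and Pax6 (1.27, 5.63 and 9.86 TPM).

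The Hox genes, homeodomain factors that lie in 4 clusters, differed by cluster. The Hoxa cluster summed to 163, 172 and 186 TPM, with 7 of 11 genes over 3 counts in every library. The Hoxb cluster summed to 24.2, 26.7 and 33.6 TPM, with 6 of 10. No gene of 9 in the Hoxc cluster passed (0.0888, 0.42 and 0.926 TPM in sum), and all 9 of the Hoxd cluster had 0 counts in all 6 libraries. Hoxa9 (68.0, 78.4 and 86.6 TPM) and Hoxa10 (47.5, 50.4 and 53.4 TPM) were the highest of those with 2 or more transcripts, and their ranges did not overlap. Among Hox genes with a single transcript, Hoxa7 had 14.6, 15.8 and 17.2 TPM, Hoxa6 had 12.4, 14.7 and 20.8 TPM and Hoxb2 had 9.15, 10.4 and 11.9 TPM. In the same class, Hoxb4, used to expand HSCs, had 1.15, 2.05 and 2.32 TPM, and the HSC marker Hoxb5 had 4.70, 6.00 and 8.82 TPM. Within the Hoxa cluster the genes next to the highest ones, Hoxa11 and Hoxa13, had 0 counts in all libraries.

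**Figure D4:**
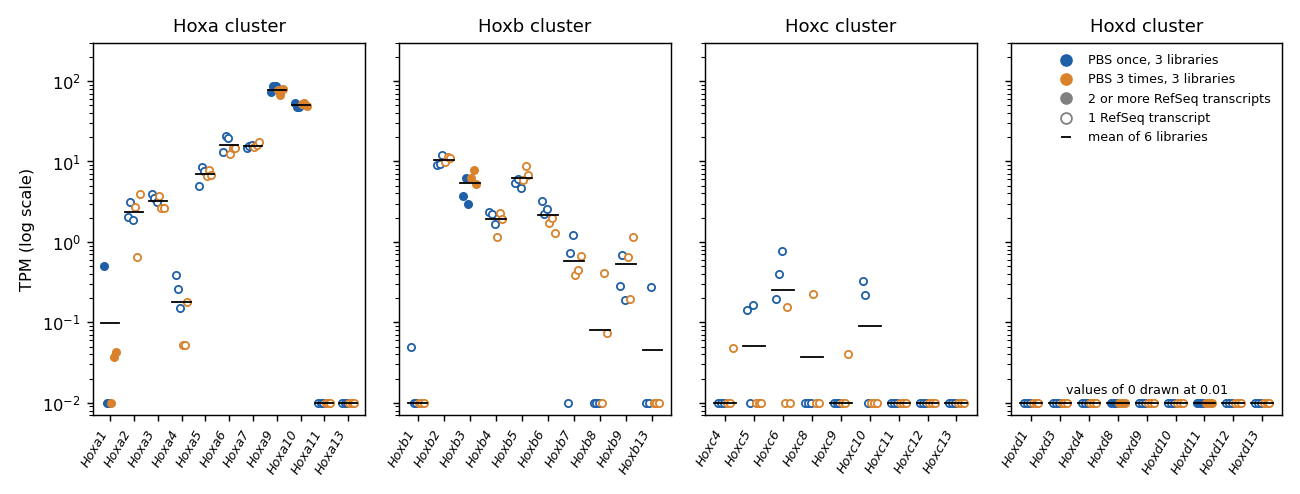
TPM (log scale) of the 39 Hox genes in each of the 6 libraries, 1 panel per cluster with genes in order of their number, PBS once in blue and PBS 3 times in orange, 2 or more RefSeq transcripts filled, a single transcript open, the mean as a line and values of 0 at 0.01. In the Hoxa cluster no gene past Hoxa10 has counts, and the Hoxd cluster is at 0.

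Of 244 receptors, 181 had over 3 counts in all 6 libraries, 24 reached 100 TPM and 21 were at or under 3 counts in each. Of 39 cytokine receptors 30 had over 3 counts in all 6 libraries. Below Kit came Il11ra1 (369, 407 and 434 TPM), the shared chain Il2rg (230, 247 and 270 TPM), Il15ra (162, 203 and 232 TPM) and the interferon receptor chain Ifnar2 (122, 141 and 148 TPM). Il7r, the receptor of lymphoid progenitors, Il1rl1 and Il2ra were at or under 3 counts in every library. Epor, the erythropoietin receptor, was picked after its values were seen. It has a single transcript and had 13.3, 15.9 and 21.3 TPM, so that it was detected but far below the 43.6, 47.1 and 52.1 TPM of Ifngr1 in the same class.

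The highest receptor with 2 or more transcripts was an adhesion receptor coupled to G proteins, Adgrg1 (also GPR56), with 1917, 2056 and 2154 TPM. In that group of 48 it was followed by Adgre5 (136, 161 and 178 TPM) and P2ry14, the receptor of UDP-sugars (106, 142 and 160 TPM), and by Adora2a and Ptger3, receptors of adenosine and prostaglandin E (67.6, 78.8 and 83.5 TPM, and 57.6, 65.4 and 75.2 TPM). Adgrl4, with a single transcript, had 82.1, 83.7 and 94.0 TPM. At or under 3 counts in all libraries in this group were, among others, Ackr3, Adrb1, Adrb3, Casr and F2rl1. Cxcr4, the receptor that holds HSCs in the marrow, was picked after its values were seen and had 9.90, 13.7 and 15.8 TPM.

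Kit is itself a receptor tyrosine kinase but was counted with the cytokine receptors. Among the 34 other receptor tyrosine kinases listed, Tek, the angiopoietin receptor of HSCs and endothelium, was highest of those with 2 or more transcripts (90.7, 112 and 133 TPM), followed by Fgfr3, whose libraries spread from 32.2 over 56.4 to 105 TPM. Tie1, with a single transcript, had 46.3, 49.8 and 55.2 TPM. Mst1r, Ntrk2, Alk and Ltk were at or under 3 counts in every library. Of 46 adhesion and surface receptors 42 passed, led by Cd47, which protects cells from phagocytosis (861, 926 and 947 TPM), the tetraspanin Cd82 (435, 465 and 521 TPM), Cd34, Cd44 (233, 279 and 292 TPM) and Cd27 (221, 258 and 326 TPM). Cdh5, the cadherin of endothelium, was the only one of the 46 at or under 3 counts in all 6.

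Eng, the TGF-beta co-receptor endoglin, had 400, 421 and 440 TPM and stood above Tgfbr2 (33.8, 40.04 and 46.6 TPM) and Tgfbr1 (27.7, 34.5 and 48.9 TPM) of the same class, whose ranges overlapped. Bmpr1b was at or under 3 counts in all libraries. Of 22 Notch, Wnt and Hedgehog receptors none reached 100 TPM. Fzd6 led those with 2 or more transcripts (27.95, 32.54 and 42.95 TPM), and Smo (24.0, 28.1 and 29.7 TPM), Notch2 (14.6, 16.8 and 18.0 TPM) and Fzd7 (5.02, 6.52 and 8.03 TPM) those with one. All 28 nuclear receptors had over 3 counts in at least 1 library. Rxrb (258, 292 and 311 TPM), the oxysterol receptor Nr1h2 (263, 285 and 300 TPM) and the glucocorticoid receptor Nr3c1 (129, 140 and 160 TPM) were highest, and Rxrb and Nr1h2 overlapped. Of 15 pattern recognition receptors, the cytosolic sensors Ifih1 (34.4, 37.4 and 43.7 TPM) and Nod1 (30.02, 36.64 and 41.99 TPM) were highest, and Tlr5, Tlr8 and Tlr9 were at or under 3 counts in all 6.

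Many enzymes exist as isozymes, gene copies that catalyze the same step with different kinetics and tissue use. The 74 families examined held isozymes and also other related genes, such as subunits, transporters, D-type cyclins, their inhibitors and HIF alpha genes. Members of a family are therefore not all alternatives for the same step. The leader was taken as the member with the highest level per length after PBS once. It also led in all 3 libraries after PBS 3 times in 70 families. In 51 families the leader and the next member had the same class of transcript number, and 46 of these leaders led in all 6 libraries. Shares below are of the summed level per length of a family.

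In glycolysis, Hk1 led the hexokinases over Hk3 with 72.8%, 74.4% and 81.4% of the family as the lowest, median and highest share. Hk2 has a single transcript (7.33, 8.33 and 8.93 TPM), and Hkdc1 was at or under 3 counts in all libraries. Phosphofructokinase had no fixed leader. Pfkm had 173, 204 and 239 TPM, Pfkl had 185, 193 and 206 TPM, and the ratio of Pfkm to Pfkl ran from 0.877 to 1.27, while Pfkp was lower (75.4, 85.6 and 89.5 TPM). Of the 4 PFKFB genes, whose products set the level of the PFK activator fructose 2,6-bisphosphate, Pfkfb3 led in all 6 libraries (82.8, 88.7 and 102 TPM). It was between 2.37 and 4.15 times as high as Pfkfb2, and Pfkfb1 spread from 6.04 to 21.8 TPM. Aldoa held 96.3%, 96.9% and 97.6% of the aldolases, and Eno1 held 96.4%, 97.5% and 97.9% of the sum over Eno1, Eno2, Eno3 and Eno4. The near-identical copy Eno1b was not on this list. It has a single transcript and had 323, 347 and 372 TPM, and reads of the pair may have been split between them. Pklr, the pyruvate kinase of liver and red cells, had 8 and 66 counts in 2 libraries and 0 in the other 4, against at least 105978 counts of Pkm. Ldha was between 2.09 and 2.99 times as high as Ldhb (1152, 1286 and 1393 TPM against 456, 525 and 566 TPM), and the ranges did not overlap. In some families whose leader and next member both have a single transcript, the next member was at or under 3 counts in all libraries, as with Pgk2 beside Pgk1, Pdha2 beside Pdha1, Gys2 beside Gys1, Fbp2 beside Fbp1 and Pck1 beside Pck2. Glycogen phosphorylase differed from these, since all 3 forms, each with a single transcript, were detected. The liver form Pygl had 31.9, 41.0 and 44.8 TPM, the brain form Pygb 24.3, 29.6 and 34.3 TPM and the muscle form Pygm 16.4, 17.9 and 25.1 TPM, and Pygl and Pygb exchanged order with the union of exons as length. The phosphoglycerate mutase family was grouped by name, and its leader in the counts above, Pgam5, is not a glycolytic isozyme. Pgam5 and Bpgm have several transcripts and Pgam1, the classical glycolytic copy, a single one (61.3, 67.2 and 71.7 TPM), so their order is not given. Glucose transporters mixed the classes in the same way. With a single transcript, Slc2a3 (36.4, 38.9 and 43.6 TPM) stood above Slc2a1 (18.2, 19.7 and 21.0 TPM), and the insulin-dependent Slc2a4 was at or under 3 counts in all libraries.

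At the entry of pyruvate into mitochondria, the carrier subunit Mpc1 had 309, 394 and 428 TPM and Mpc2, with a single transcript, 31.9, 34.5 and 39.5 TPM. Pdk1 (65.2, 84.8 and 93.2 TPM) and Pdk2 (61.5, 72.0 and 74.5 TPM), kinases that switch pyruvate dehydrogenase off, overlapped, and Pdk1 led in 5 of 6 libraries. In the tricarboxylic acid cycle, Suclg2 stood above Sucla2 by 1.14 to 1.45 times in all 6. Got2 exceeded Got1 by 2.49 to 4.31 times, both with a single transcript. For isocitrate dehydrogenase, Idh2 has a single transcript and Idh1 has more, and their ratio ran from 0.664 to 1.33. In respiration, the somatic copies Cox6a1, Cox7b, Cox8a, Ndufa4 and Cycs held at least 99.4% of their pairs or trios, all of them with a single transcript, and the paralogs Cox6a2, Cox7b2, Cox8b, Ndufa4l2 and Cyct were at or under 3 counts in all libraries. An exception was subunit 6B, in which Cox6b2, known from testis, was between 3.50 and 4.92 times as high per length as Cox6b1. Both have 2 or more RefSeq transcripts, but the count of Cox6b1 was 1.21 times as high in the deepest as in the shallowest library, against 1.45 times for Cox6b2 and 1.43 times for all counts, so the order of this pair is less certain. Slc25a5 exceeded Slc25a4, the muscle form of the ADP/ATP carrier, by 2.29 to 2.51 times (a single transcript each), Vdac3 exceeded Vdac1 by 1.45 to 1.62 times, an order that turned with the union of exons as length, and Ucp2 was the uncoupling protein, with Ucp1 and Ucp3 at or under 3 counts.

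Among regulators of metabolism, Hif1a held 88.3%, 90.8% and 94.2% of the HIF alpha genes and Prkaa1 held 87.9%, 90.6% and 94.8% of the catalytic AMPK subunits. Akt2 and Akt1 exchanged the lead, with a ratio of 0.636 to 1.71. Of antioxidant families, Gpx1 was at least 3.43 times as high as Gpx4, and Sod1 was between 4.08 and 4.66 times as high as Sod2, both with a single transcript, an order that turned in counts without a length and with the longest GENCODE transcript. Car2 (1909, 2131 and 2200 TPM) held 97.1%, 98.0% and 98.1% of the summed carbonic anhydrase level. However, 8 of the 13 members have a single transcript, so their part may be understated. Among them is the next member Car9 (10.7, 12.2 and 13.1 TPM), and Car4 and Car6 were at or under 3 counts. In nucleotide synthesis, Ctps2 exceeded Ctps by 3.21 to 4.78 times and Impdh2 exceeded Impdh1 by 1.42 to 1.74 times. Prmt1 led the type I arginine methyltransferases (141, 146 and 149 TPM) over Prmt2 (53.96, 89.53 and 103.1 TPM) and Carm1 (67.5, 79.1 and 95.5 TPM), and Prmt8 was at or under 3 counts. Ccnd3 (618, 735 and 754 TPM) stood above Ccnd1 (12.03, 13.82 and 18.53 TPM) of the same class, and Ccnd2 has a single transcript (38.1, 42.4 and 47.6 TPM). Cdkn1c, the inhibitor p57 that is linked to HSC rest, had 117, 130 and 149 TPM against 5.50, 8.37 and 9.38 TPM for Cdkn1a, while Cdkn1b has a single transcript (7.30, 8.71 and 10.6 TPM).

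**Figure D5:**
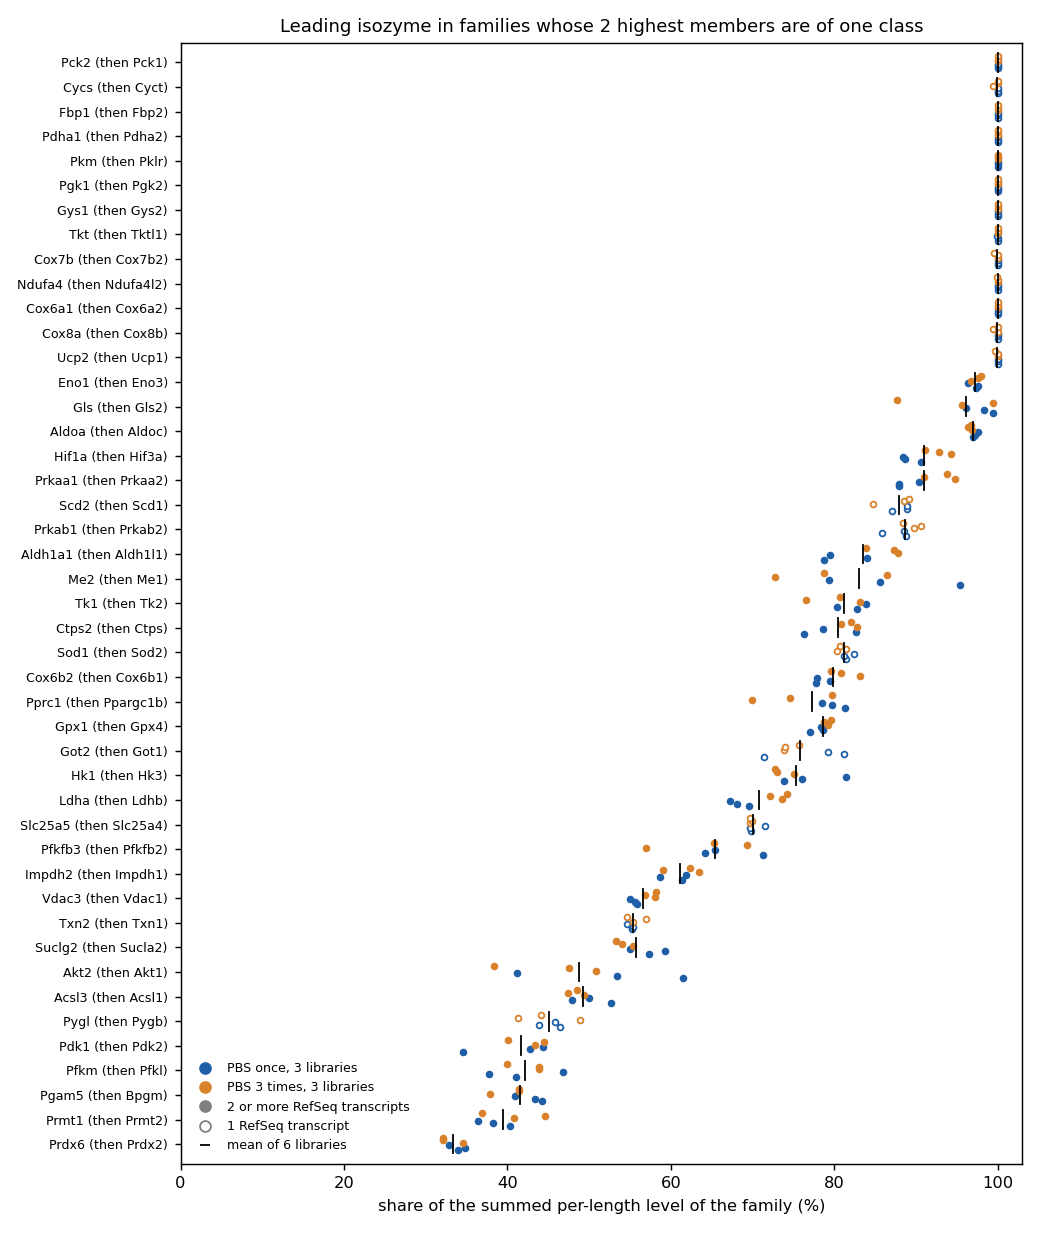
Share (percent) of the leading member in the summed level per length of its family in each of the 6 libraries, for 45 of 47 families of isozymes or related genes with leader and next member of one class and a leader of at least 10 TPM. PBS once is blue, PBS 3 times orange, 2 or more RefSeq transcripts filled, a single transcript open, and the bar is the mean. In 15 families the leader holds over 90% in every library, and Akt2, Pfkm, Pdk1 and Prdx6 do not lead in every library.

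Of the 21000 symbols, 6440 (30.7%) had at most 3 counts in each of the 6 libraries, and 5752 had 0 in all. A single RefSeq transcript was annotated for 5234 of the 6440. Of the large receptor families of sensory cells, 1085 of 1107 olfactory, 337 of 352 vomeronasal and 35 of 38 taste receptors were at or under 3 counts. The same held for 70 of 70 defensins, 101 of 110 keratins and keratin-associated proteins, and 113 of 389 solute carriers. At the other end were 0 of 78 mitochondrial ribosomal proteins, 2 of 91 cytosolic ribosomal proteins, 19 of 398 zinc finger genes of the Zfp series and 0 of 8 Gimap genes, GTPases of lymphoid and stem cells. Among the exceptions in these families were Olfr1509, over 3 counts in all libraries, and Krt18, the keratin of simple epithelia, both with a single transcript. Krt18 had 753 to 1008 counts and 56.9, 62.1 and 67.3 TPM. Of 69 marker genes of 7 unrelated tissues 44 were at or under 3 counts in all 6, with 9 of 12 for liver, 7 of 8 for pancreas, 7 of 12 for muscle and heart and 6 of 12 for neurons. The exceptions with over 100 counts on average were Camk2a, a kinase of neurons (20.3, 24.6 and 29.9 TPM), Cela1, a pancreatic elastase with a single transcript (10.8, 12.8 and 16.4 TPM), and Zpbp, a sperm protein (2.97, 6.97 and 8.80 TPM).

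Markers of other marrow cells were mostly low. Of 14 T and NK cell markers 8 were at or under 3 counts, among them Cd3e, Cd3g, Cd8a and Il7r, and the list summed to 89.4, 96.1 and 111 TPM, to which Nkg7, with a single transcript, gave 45.4, 50.3 and 56.1 TPM and Lck 24.7, 30.2 and 51.7 TPM. Of 14 B-cell markers, Ms4a1, Pax5, Rag1, Rag2 and Blk were at or under 3 counts, and the sum of 188 to 201 TPM was almost wholly Cd79b and, with a single transcript, Ptprcap. The exons of Ptprcap overlap an exon of Rps6kb2 on the opposite strand over 76.0% of their bases, and the library kit does not mark strand, so that reads of the pair cannot be told apart. Neutrophil markers summed to 249, 347 and 421 TPM, of which S100a9 gave 77.9, 120 and 172 TPM and Csf3r 65.4, 88.2 and 112 TPM. With a single transcript, Prtn3 had 49.4, 51.9 and 66.8 TPM, Elane 0.336, 1.52 and 2.73 TPM, and Mpo 0.827, 2.18 and 3.87 TPM. Of monocyte and macrophage markers, Lyz2 had 80.4, 89.0 and 96.2 TPM, and Cx3cr1 had a median of 0, both with a single transcript. Globin genes, with a single transcript, had few counts, with Hbb-bt at 24.7, 30.2 and 34.4 TPM and Hba-a1 at 0.549, 4.04 and 15.1 TPM, and Slc4a1, the anion exchanger of red cells, at or under 3 counts. For mast cells and basophils the sum was 4.15 TPM at the lowest and 8.63 TPM at the median, with Mcpt8, Cma1, Tpsb2 and Prss34 at or under 3 counts. Stromal genes summed to 17.7, 28.6 and 68.2 TPM, with Col3a1, Bglap and Lum at or under 3 counts. The endothelial sum of 539, 591 and 657 TPM came mainly from Egfl7 and Pecam1, which HSCs also express, and Cdh5 and Lyve1 were at or under 3 counts.

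Megakaryocyte and platelet genes were detected more widely, with 13 of 14 over 3 counts in all libraries and Gp6, the collagen receptor, at or under 3 in all. With a single transcript each, Itga2b had 53.6, 61.4 and 70.0 TPM, Pf4 46.27, 49.99 and 65.49 TPM, Gp9 38.9, 40.7 and 54.0 TPM and Vwf 16.5, 18.0 and 20.5 TPM. All 26 cell cycle genes on the list had over 3 counts in every library. The replication helicase genes led, with Mcm7 at 417, 499 and 557 TPM and Mcm6 at 293, 337 and 381 TPM, while Mki67, with a single transcript and picked after its values were seen, had 11.2, 18.9 and 21.6 TPM. Among imprinted genes Gnas (2055, 2159 and 2260 TPM), Grb10 (119, 139 and 164 TPM) and Cdkn1c were high, and Peg3, with a single transcript, had 0, 0.178 and 0.768 TPM. Of 16 immediate early genes, which respond within minutes to handling of cells, Junb (54.7, 67.4 and 74.7 TPM), Ier2 (55.4, 62.7 and 70.5 TPM) and Hspa1b (21.7, 62.1 and 78.3 TPM) were highest, all with a single transcript, Fos had 3.76, 5.80 and 12.5 TPM, and Atf3 was at or under 3 counts.

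Between the 6 libraries, the 10910 genes with a mean of at least 100 counts had a median CV of 11.2%, and the 90th percentile was 26.0%. For HSC markers the median CV was 7.61% (20 genes), and for members of the isozyme and related families 8.94% (165). For transcription factors it was 10.2% (92) and for receptors 15.2% (153), with both transcript classes in each list. At equal counts per base, the median CV was larger in genes with 2 or more RefSeq transcripts. Among genes with at least 1000 counts, the least variable were Mlf2 (1.24%), Calu (1.37%), Nadk, which makes NADP (1.38%), and Sox4, a factor of progenitors (1.47%), followed by Slc19a1, Rab1b, Dpf2, Bscl2, Igfbp4 and the ETS factor Elf1 (1.85%). Sox4, Rab1b and Igfbp4 have a single transcript, and their CV is not comparable with that of the others. Elf1 had 9887 to 13597 counts. At the other end, 11 genes had a CV of over 100%. Ltf, the lactoferrin of neutrophil granules, had 372 and 446 counts in replicates 1 and 2 after PBS once and 14 to 44 in the other 4 libraries. Some further neutrophil markers, picked after their values were seen, were high in the same pair of libraries. Ngp had 357 and 345 counts there and 73 to 143 in the other 4, Lcn2 had 94 and 127 against 15 to 26, and Mmp9 had 84 and 74 against 0. Ly6g, of the same list, did not follow, with 71, 1 and 14 counts after PBS once and 0, 0 and 20 after PBS 3 times. The 15 neutrophil markers together summed to 415, 421 and 249 TPM after PBS once and to 252, 315 and 378 TPM after PBS 3 times, and the part of neutrophil RNA in these counts was not tested. Tnc, the matrix protein tenascin C, had 238, 790 and 330 counts after PBS once and 0 in each library after PBS 3 times. Cxcl12, the chemokine of marrow stroma, had 447, 1850 and 950 counts after PBS once and 0, 0 and 292 after PBS 3 times. Of the other stromal markers, Lepr, the leptin receptor of marrow stroma, had 0, 382 and 126 counts after PBS once and 0, 2 and 40 after PBS 3 times. Adipoq had 0, 42 and 23 counts and 2, 0 and 12, while Col3a1, Bglap, Bglap2 and Dcn were at or under 3 counts in all 6 libraries. Pdgfrb, Col1a2 and Kitl, of the same list, were also detected, and their counts are not given here. The 13 stromal markers together, with Cxcl12, summed to 28.4, 68.2 and 38.8 TPM after PBS once. After PBS 3 times they summed to 22.5, 17.7 and 28.7 TPM, so the groups overlapped. The part of stromal cells in the counts of Tnc and Cxcl12 was not tested. The other 7 most variable genes were Phf24, Tmem215, Zfp454, Arpp21, Npnt, Map7d2 and Ndrg4, all with 2 or more RefSeq transcripts and with at most 21 counts in the lowest library and at least 306 in the highest. Arpp21, with 51 transcripts, had 244, 0 and 349 counts after PBS once and 24, 744 and 0 after PBS 3 times.

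Rank correlations between libraries, over genes that are not independent replicates, lay between 0.9818 and 0.9886. The 5 pairs with replicate 2 after PBS 3 times lay between 0.9818 and 0.9856. On the first principal component of the 2000 most variable genes (28% of the variance) that library stood at 57.3, while the others lay between −23.4 and 6.49. The biological CV within a group by edgeR was 14.7% after PBS once and 16.3% after PBS 3 times, and between 13.6% and 17.7% in the other 5 groups of the series.

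Whether the 6 libraries can be read as a single baseline was examined by comparing PBS 3 times with PBS once. By edgeR's quasi-likelihood test with Benjamini-Hochberg adjustment, 2 of 12806 genes differed, which is 0.0156% of those tested, with 1 in each direction (0.00781%). At an unadjusted p under 0.05 there were 1633 genes, and for 20.1% of the genes the 2 groups of libraries did not overlap. If no gene differed, a share of about 0.05 of the 12806 would have an unadjusted p under 0.05, and 1633 is above that share. Few adjusted calls with 3 libraries in each group therefore do not show that the groups are alike. The number of rounds cannot be told apart from other differences between the groups, since the column names of the libraries after PBS once carry a suffix that the others lack. Plscr2, which encodes a phospholipid scramblase, had 168, 160 and 147 counts after PBS once and 653, 800 and 571 after PBS 3 times, and rose by 1.84 on the log2 scale (SE 0.116, adjusted p = 0.0112 by edgeR). Glcci1, a gene induced by glucocorticoids, had 1092, 1105 and 919 counts after PBS once and 681, 662 and 627 after PBS 3 times, a change of −0.90 (SE 0.0743, adjusted p = 0.0354 by edgeR). For neither gene did the groups overlap. DESeq2 called 510 genes (284 higher and 226 lower after PBS 3 times), and the fit with the replicate numbers as a block called 0. Without replicate 2 after PBS 3 times 1 gene was called, and without any other library 0.

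Some genes named above came near the threshold without passing it, and were picked for this after their values were seen. Selp had a difference of 1.58 on the log2 scale (SE 0.159, adjusted p = 0.0741 by edgeR), with 302, 239 and 225 counts after PBS once and 739, 1016 and 949 after PBS 3 times. Ly6a had 0.60 (SE 0.0700, adjusted p = 0.0920 by edgeR) and Ly6e 0.37 (SE 0.0422, adjusted p = 0.0920 by edgeR). In sum, the 11 interferon response genes had 3330, 3490 and 3430 TPM after PBS once and 4110, 4050 and 4160 TPM after PBS 3 times, most of it from Ly6e, and the 26 cell cycle genes had 2010, 1990 and 1960 TPM against 1920, 1640 and 1770 TPM. No gene of either list passed the threshold. Among the lists, the groups did not overlap for 20 of 105 transcription factors tested and 34 receptors. The same held for 46 of 183 members of the isozyme and related families and 7 of 20 HSC markers. These counts are to be read against the 20.1% of all genes, and 0 genes of these 4 lists were called. The median difference over all genes tested was −0.00185 on the log2 scale, with −0.0196 for genes with a single RefSeq transcript and 0.0207 for those with more.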

How the data were processed

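Total RNA from 3000–3500 sorted HSCs was amplified with the SMART-Seq v4 kit and sequenced as single-end reads of 75 bases from Nextera XT libraries. The authors mapped the reads with TopHat 2.0.13 to mm10 and quantified genes with Cuffdiff of Cufflinks 2.2.1. The deposited table holds whole-number counts per gene symbol without normalization. How these counts were made is not given in the sources used here.

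The 6 PBS libraries were selected by their labels. TPM were computed from the counts and the longest GENCODE vM21 transcript with a RefSeq match, or the longest of the gene where none matched (20906 of 21000 symbols had a length). CPM for the spread were scaled by TMM. PBS 3 times was compared with PBS once by edgeR 4.0.16 (filterByExpr, TMM, quasi-likelihood F test, Benjamini-Hochberg adjustment, threshold 0.05) in R 4.3.3. The steps were tested on simulated counts. Replicates were independent experiments. Same-numbered libraries of the 2 groups had correlations of their deviations of 0.0179, −0.0152 and −0.00267, so the numbers were not used as pairs. Every library total was computed from the table. Levels and shares carry no test. With 6 libraries, the lowest, median and highest are given.

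Named genes were the 20 highest by TPM and 10 by counts, up to 6 members of each list with the highest level and those at or under 3 counts, the genes of the gate, the 2 highest members of each family, the 10 most and 10 least variable genes and the genes past the threshold. Some genes outside this rule are marked in the text as picked after their values were seen. Others outside it are reported without such a mark, among them Cd9, Hlf, Procr, Vwf, Elane, Mpo, Cx3cr1, Hba-a1, Fos and Peg3. Genes without a mark are therefore not all to be taken as chosen by the rule. The lists and the members were chosen with earlier results of these data known.

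Alternatives were relative log expression size factors, no normalization factor, DESeq2 1.42.0, other filters on low counts, a replicate block, all 21 libraries in one fit, other gene lengths, other floors and leaving out each library. The division by RefSeq transcripts and the fits that use it were added after the data were seen. Mitochondrial genes, Malat1 and isoforms were not analysed here, and some genes that the rule names are not reported here.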

Additional observations from a re-analysis of the deposited data

Results flagged for a closer look

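Dixon's test over the 6 libraries was run on the TPM of genes named by the rule with at least 100 counts on average and on the summed TPM of the lists, 363 values in all, of which 21 (5.79%) passed the 95% critical value for 6 samples. Chance flags about 1 in 20, and the statistic is the gap of the extreme library divided by the whole range. After PBS once, replicate 3 was the extreme library for Pf4 (0.743), Cox7b (0.707), Prmt3 (0.668) and Gp9 (0.639), where it was highest, for the sum of T and NK cell markers (0.681, highest) and for the sum of pattern recognition receptors (0.833, lowest). Replicate 1 was highest for Acaca (0.64), and replicate 2 for Shmt1 (0.722). After PBS 3 times, replicate 1 was highest for Scd1 (0.753), Phf24 (0.771) and Map7d2 (0.687), and lowest for Pdk3 (0.678) and for the sums of nuclear receptors (0.714) and testis genes (0.692). Replicate 2 was highest for Flt3 (0.695) and lowest for Prmt2 (0.659). Replicate 3 was lowest for Car2 (0.687) and Acsl3 (0.661), and highest for Dlk1 (0.739), Ier3 (0.714) and Aurka (0.638). The imprinted gene Dlk1 had 15.96 TPM in that library against a median of 4.79 TPM.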

How the results depend on the processing

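The 2 genes that differed between PBS 3 times and PBS once depended on the method. The count was 510 with DESeq2, 0 with the replicate block, 19 with all 21 libraries in one fit, and 0 to 1 without one library, so that leaving out any library removed at least 1 of the calls. Among genes with 2 or more RefSeq transcripts alone it was 7, and among those with a single one 5. These last 2 were chosen after the data were seen, and fewer genes were tested in them. The count was 2 under the other 5 alternatives. The replicate numbers did not pair the libraries, and the block lost both calls. The number of genes at or under the floor ran from 5752 (0 counts) to 7209 (at most 10), the number of families with a constant leader from 68 to 71 over other lengths, other choices of leader and single libraries left out, and the median CV from 10.8% to 11.3%. With the union of exons as length, 6 of 74 leaders changed (Slc2a3, Slc16a7, Pygl, Idh2, Vdac3 and Txn2 gave way), and with counts without a length 7 (among them Pfkm, Pygl, Idh2, Vdac3, Sod1 and Rrm2). Of the 20 highest TPM genes, 18 stayed with the union of exons and all 20 without any one library. The counting limit of genes with a single RefSeq transcript, seen in the counts per base, compresses their levels and their differences between libraries, and total depth does not mend it.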
